A study of Homo sapiens with 4 samples.

Results

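Enzymes that methylate transfer RNA (tRNA) or turn its uridines into pseudouridine were followed by 10 genes: WDR4, METTL1, TRMT1, TRMT5, TRMT6, TRMT61A, NSUN2, PUS1, PUS3 and PUS7. They were chosen by a measured value, as WDR4 had been seen among the most reduced genes at 18 h of methylthioacetic acid (MTA) treatment, so the ratios at 18 h are a description and carry no test. The genes were represented by 18 of the 54613 probe sets other than controls. Of these 18 probe sets 17 were bright enough to be kept, and all 10 genes had at least 1 among them, of 10505 genes in all.

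RCM-1 is a human cell line from a well-differentiated adenocarcinoma of the rectum. Nearly confluent cells received MTA at 1 mM, dissolved in acetonitrile, for 6, 12 or 18 h. They were then kept in vehicle medium without MTA for 18, 12 and 6 h, until 24 h after the start, so that hours of exposure and hours since washout vary in opposite directions and cannot be told apart. The 0 h cells, labelled as the control, were the reference for every ratio, and the sources used here do not say outright whether their harvest was also at 24 h. Each time had 1 oligonucleotide array and no replicate, in a single cell line, which limits precision throughout. In such bulk samples fewer transcripts per cell cannot be told apart from fewer cells of a kind.

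A newly made tRNA is changed at many of its bases before it serves in translation. Methyl groups and pseudouridines in the body of the molecule help it to fold and protect it from decay, while those in and beside the anticodon keep reading of the code accurate. The methyltransferases use S-adenosylmethionine as the methyl donor, whereas pseudouridine synthases rearrange a uridine in place without any donor. Several act as a catalytic subunit with a partner that binds the tRNA.

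The authors deposited MAS5 signals, which are intensities on a linear scale. Ratios are given as log2 of the signal at 6, 12 or 18 h over that at 0 h, with the deposited scaling. A gene was called lower at a log2 ratio below −1.5, which is 2.83-fold, and counts at −1 are given beside it. The only measure of error was how far a gene's 2 brightest kept probe sets differed in log2 ratio. The SD of this difference over 4676 genes was 0.408, 0.421 and 0.479 at 6, 12 and 18 h. It is a spread within the same arrays, not between cultures.

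Some properties of the arrays moved with time. At 6, 12 and 18 h the median log2 ratio of all genes was 0.11, −0.28 and −0.47. Poly-A control transcripts, added before labelling, averaged log2 ratios of 0.20, 0.03 and −0.25 at these times. The hybridization controls averaged 0.02, −0.27 and −0.05. The 3′ over 5′ signal ratio, a measure of RNA integrity, was 1.44 to 1.64 for GAPDH and 4.76 to 6.45 for ACTB over the 4 arrays, and the highest ACTB value was that at 18 h. All 13 epithelial and intestinal markers had a kept probe set. Their summed signal was 48727 at 18 h against 72653.5 at 0 h. The median log2 ratio of these markers was −0.44, which is 0.02 relative to the median of all genes. The lowest were CEACAM5 at −1.70 and CEACAM6 at −1.23, and the highest were CDX2 at 0.33 and VIL1 at −0.23. Of the stromal markers 1 of 7 had a kept probe set, of the immune markers 0 of 5 and of the endothelial markers 1 of 3. The summed signal of the stromal list was 390.0 at 18 h against 183 at 0 h, that of the immune list 42.8 against 42.4, and that of the endothelial list 73.3 against 72.5. COL1A1, the stromal marker that was kept, had 4.23 at 18 h on a probe set that read 7.64 at 0 h, and −0.57 on another kept probe set. The part of these properties in the results was not tested.

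At 18 h of MTA treatment 8 of the 10 genes had a log2 ratio below −1, each by its brightest kept probe set. Among all genes 15.8% were below −1. With ratios centred on their median the numbers were 4 of the 10 and 3.74% of all genes, and with scaling to the hybridization controls they were 8 of the 10 and 13.8%. The numbers with scaling to the poly-A controls were 6 of the 10 and 7.47%. WDR4, TRMT1 and METTL1 were below −1.5, where 3.19% of all genes lay, and only WDR4 was below −2, where 0.6% lay. With median centring WDR4 alone was below −1.5. These calls rest on the brightest probe set of each gene. With the mean over kept probe sets TRMT1 had −2.05, WDR4 −2.03 and TRMT61A −1.56. By that measure 4 of the 10 were below −1.5, against 2.82% of all genes. None of the 10 was above 1, against 3.15% of all genes. Their median was −1.36, which is −0.89 relative to the median of all genes. PUS3 and TRMT5 were the exceptions, at −0.85 and −0.20.

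**Figure D1:**
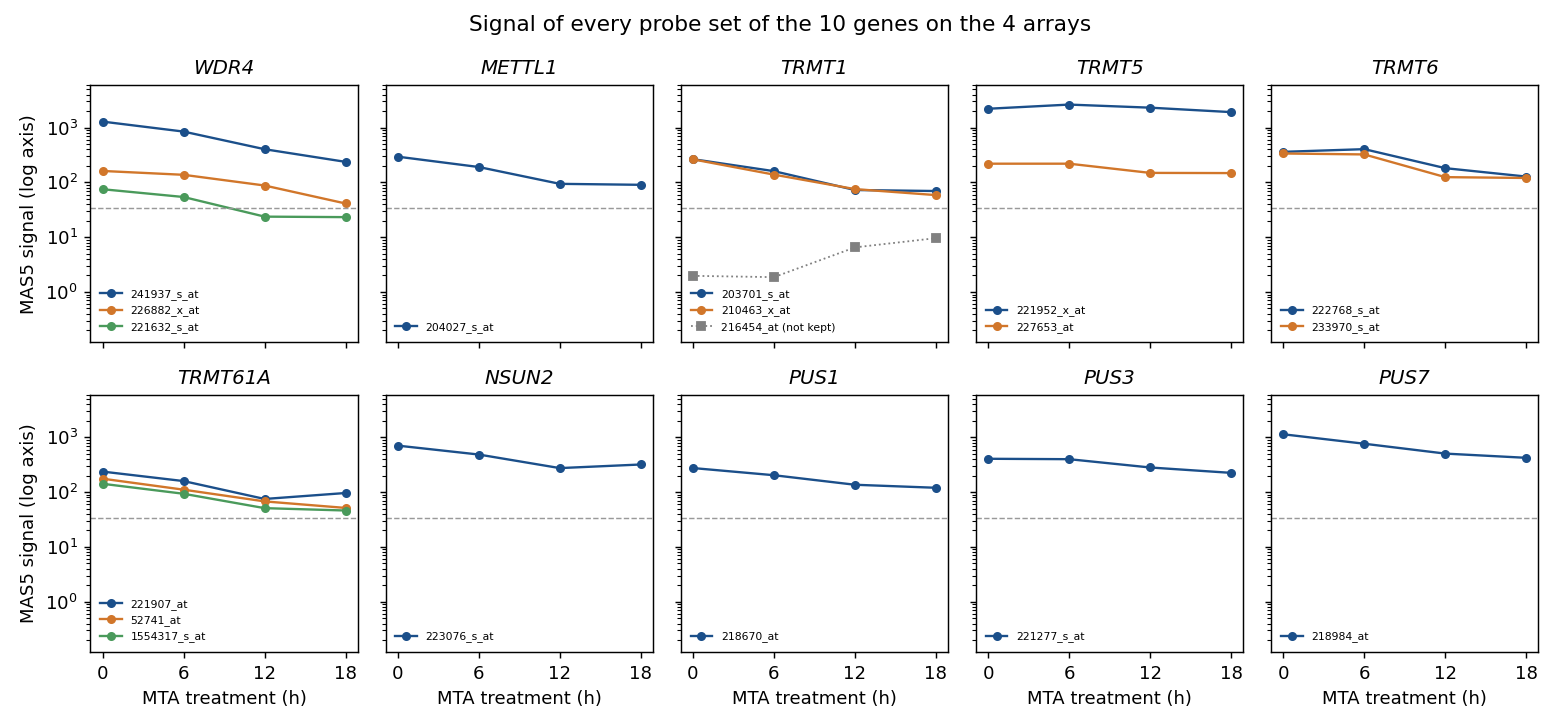
MAS5 signal (log axis) against hours of MTA treatment for every probe set of the 10 genes, with 1 point for each array and a dashed line at the lowest mean signal kept, 34.0. Signals at 18 h lie below those at 0 h on all 17 kept probe sets, and the unkept TRMT1 probe set lies below the dashed line on every array. The median log2 ratio of all kept probe sets at 18 h was −0.45, so most of them were lower as well.

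WDR4 and METTL1 form the enzyme that places 7-methylguanosine (m7G) in the variable loop of a subset of tRNAs. METTL1 is the catalytic subunit, and WDR4 is a WD-repeat protein that holds it and the tRNA. The brightest WDR4 probe set, 241937_s_at, had signals of 1285, 845, 403 and 237 at 0, 6, 12 and 18 h. Every later array was lower than the one before, and the 18 h signal was 18.4% of that at 0 h. The log2 ratios of this probe set were −0.61, −1.67 and −2.44 at 6, 12 and 18 h, and 0.0952% of all genes had a lower ratio at 18 h.

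The other WDR4 probe sets were dimmer and were also lower at each time than at 0 h. Probe set 226882_x_at had signals of 162, 137, 87.7 and 41.2 at 0, 6, 12 and 18 h. Its suffix marks probes that can also take up other transcripts. Probe set 221632_s_at had 75.0, 54.1, 23.7 and 23.2, so that its last 2 signals were below the lowest mean signal kept, 34.0. The log2 ratios at 18 h were −1.97 and −1.69 on these probe sets, a range of 0.75 over all WDR4 probe sets. This range over 3 probe sets is not a measure like the SD, which is of differences between 2, so they were not compared. Its upper end rests on 221632_s_at, which read below the lowest mean signal kept at 18 h. On each of the probe sets the ratio was below −1.5 with the deposited scaling. WDR4 overlaps the gene LOC105372817 in the RefSeq annotation, and how far the probes can tell these transcripts apart was not tested.

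METTL1 was read by 204027_s_at alone, with signals of 294, 191, 94.1 and 90.3 at 0, 6, 12 and 18 h. Most of the difference from 0 h was present by 12 h, as the signals at 12 and 18 h lay close together. Its log2 ratios were −0.63, −1.65 and −1.71. The log2 ratio of the brightest WDR4 probe set minus that of METTL1 was 0.02 at 6 h and −0.03 at 12 h. At 18 h it was −0.74. On 226882_x_at the difference was 0.39, 0.76 and −0.27 at 6, 12 and 18 h, so that WDR4 lay below METTL1 at 18 h and not at 12 h. On the dimmest, 221632_s_at, it was 0.01 at 18 h, where that probe set read below the lowest mean signal kept. The brighter WDR4 probe sets thus lay below METTL1 at 18 h, the first of them by more than the SD between probe sets, with no replicate check.

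TRMT6 and TRMT61A form the enzyme that places 1-methyladenosine (m1A) in the T loop, a mark that stabilises the initiator tRNA among others. TRMT61A carries the catalytic site and TRMT6 helps to bind the tRNA. TRMT6 had signals of 361, 404, 182 and 128 at 0, 6, 12 and 18 h on 222768_s_at. On 233970_s_at it had 337, 324, 125 and 120.4. Neither probe set was far from its 0 h signal at 6 h, and both were lower at 12 h. The log2 ratios were 0.16 and −0.06 at 6 h, −0.99 and −1.43 at 12 h, and −1.4996 and −1.48 at 18 h.

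TRMT61A was lower from 6 h on. Its brightest probe set, 221907_at, had signals of 237, 159, 75.1 and 96.5 at 0, 6, 12 and 18 h, and was thus higher at 18 h than at 12 h. Probe set 52741_at had 176, 111, 67.9 and 51.5, and 1554317_s_at had 142, 93.5, 51.1 and 46.3, both lowest at 18 h. The log2 ratios at 18 h were −1.30, −1.77 and −1.62 on these 3 probe sets. At 6 h they were −0.58, −0.67 and −0.60, within 0.1 of each other.

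The subunits of the m1A enzyme differed at 6 h. Over the 6 pairs of probe sets the log2 ratio of TRMT6 minus that of TRMT61A ran from 0.52 to 0.83 at 6 h, above the SD of 0.408 between probe sets of a gene at that time. It ran from −0.06 to 0.67 at 12 h and from −0.20 to 0.29 at 18 h, and at these times the probe sets of the subunits overlapped. Division of a whole array by 1 number cannot alter this difference, since both ratios come from the same arrays. Each time rests on 1 array, so the difference at 6 h has no replicate check.

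**Figure D2:**
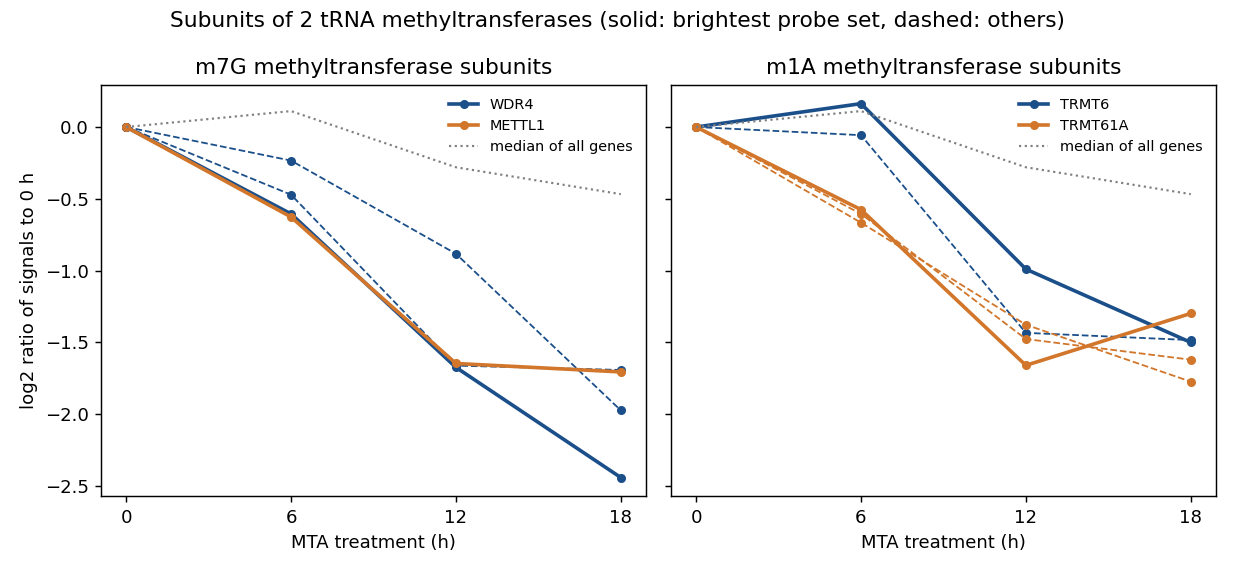
Log2 ratio of signals to 0 h against hours of MTA treatment for the subunits of the m7G enzyme (left) and of the m1A enzyme (right), with solid lines for the brightest probe set of a gene, dashed lines for its others and a dotted line for the median of all genes. On the right, TRMT6 lies at 0.16 and −0.06 at 6 h while the 3 TRMT61A probe sets lie between −0.67 and −0.58, and the genes overlap at 12 and 18 h.

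RefSeq promoters (GRCh38.p14, 250 bases before to 50 after the start of the transcript) were found for 7 of the 10 genes. They were searched on both strands for 6 motifs, chosen with the ratios already known. The E-box CACGTG, which MYC and related factors can bind, was in the promoters of TRMT6, TRMT61A and PUS7, 3 of the 7, and in 7.26% of all 35116 promoters. The ETS motif CCGGAAG was in those of TRMT6 and TRMT61A and in 10.3% of all. TTTGGCGC, a form of the E2F motif, was in that of TRMT6 and in 0.652% of all, while another form, TTTCCCGC, was in none of the 7 and in 1.63% of all. GCATGCGC, the core of the NRF1 motif, was in that of WDR4 and in 3.05% of all, and the full NRF1 motif was in none of the 7 and in 1.24% of all. In the TRMT6 promoter a pair of ETS matches, on opposite strands, overlap each other. The promoters that hold an E-box are shown for the subunits of the m1A enzyme and for PUS7, with the E-box in capitals, which begins at base 255 of the TRMT6 window, base 283 of the TRMT61A window and base 279 of the PUS7 window, after the start of the transcript in each.
TRMT6, chr20:5950484-5950783, minus strand: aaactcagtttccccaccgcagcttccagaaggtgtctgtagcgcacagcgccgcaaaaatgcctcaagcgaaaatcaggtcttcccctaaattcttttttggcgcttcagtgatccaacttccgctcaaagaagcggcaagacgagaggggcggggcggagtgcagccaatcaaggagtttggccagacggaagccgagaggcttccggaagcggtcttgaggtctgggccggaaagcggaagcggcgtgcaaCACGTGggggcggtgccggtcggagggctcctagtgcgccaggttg
TRMT61A, chr14:103528946-103529245, plus strand: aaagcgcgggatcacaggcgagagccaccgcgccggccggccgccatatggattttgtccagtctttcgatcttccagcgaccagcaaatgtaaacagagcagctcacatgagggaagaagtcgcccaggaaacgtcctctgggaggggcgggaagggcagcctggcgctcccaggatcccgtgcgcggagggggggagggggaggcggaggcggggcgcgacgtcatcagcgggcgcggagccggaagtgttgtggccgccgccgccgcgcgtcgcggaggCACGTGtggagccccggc
PUS7, chr7:105522222-105522521, minus strand: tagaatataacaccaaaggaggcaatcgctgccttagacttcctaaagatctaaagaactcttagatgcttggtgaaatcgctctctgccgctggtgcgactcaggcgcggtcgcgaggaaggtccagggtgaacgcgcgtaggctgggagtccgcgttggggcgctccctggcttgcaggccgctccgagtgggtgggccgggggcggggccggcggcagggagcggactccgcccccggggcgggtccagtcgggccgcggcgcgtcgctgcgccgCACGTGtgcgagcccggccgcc

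TRMT1 places a pair of methyl groups on a guanosine where the D arm meets the anticodon stem, in the nucleus and in mitochondria. Its 203701_s_at signals were 265, 160.3, 72.6 and 69.6 at 0, 6, 12 and 18 h. On 210463_x_at they were 263, 139, 75.4 and 58.6. The kept probe sets followed each other closely, with log2 ratios of −0.73 and −0.93 at 6 h, −1.87 and −1.80 at 12 h, and −1.93 and −2.17 at 18 h. By brightest kept probe sets TRMT1 had the lowest ratio of the 10 genes at 6 and 12 h and the lowest but WDR4 at 18 h. A dim probe set of TRMT1, 216454_at, was not kept. It had signals of 1.97, 1.87, 6.52 and 9.61 and a log2 ratio of 2.29 at 18 h, the opposite direction, all at levels below the lowest mean signal kept.

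TRMT5 methylates the guanosine beside the anticodon, which prevents slips of the reading frame. On its brightest probe set it stood apart from the other genes. The suffix of that probe set marks probes that can also take up other transcripts. Its 221952_x_at signals were 2205, 2628, 2308 and 1915 at 0, 6, 12 and 18 h, highest at 6 h and lowest at 18 h. Its other probe set, 227653_at, had 219, 219, 149 and 148. The log2 ratios at 18 h were −0.20 and −0.57, on either side of the median of all genes, −0.47. The sign of the first turned with median centring (0.25), quantile normalization (0.42), division by the trimmed mean (0.31) and scaling to the poly-A controls (0.05). TRMT5 overlaps SLC38A6 in the RefSeq annotation, and how far the probes can tell these transcripts apart was not tested.

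NSUN2 places 5-methylcytosine in many tRNAs and thereby protects them from cleavage. Its probe set 223076_s_at had signals of 707, 486, 275 and 319.8 at 0, 6, 12 and 18 h. The lowest reading was thus at 12 h, and the log2 ratios were −0.54, −1.36 and −1.14. NSUN2 and the brightest TRMT61A probe set were the exceptions among the 17 kept probe sets, as the other 15 were lower at 18 h than at 12 h, where 73.2% of all kept probe sets were lower too. The step of NSUN2 between these times, 0.22 on the log2 scale, was smaller than the SD between probe sets.

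Pseudouridine synthases were read by 1 probe set each. PUS7 modifies the D arm of tRNAs and also some messenger RNAs. It had signals of 1138, 765, 506 and 423 at 0, 6, 12 and 18 h on 218984_at, lower at each time, with log2 ratios of −0.57, −1.17 and −1.43. PUS1, which works in the nucleus and in mitochondria and whose loss causes a mitochondrial myopathy with anaemia, had 275, 204, 137 and 120.2 on 218670_at. This gave −0.43, −1.01 and −1.20. PUS3, which modifies the anticodon arm, had 407, 399.7, 282 and 225 on 221277_s_at. At 6 h PUS3 was at its 0 h level, with a log2 ratio of −0.02, and it had −0.53 and −0.85 at 12 and 18 h. PUS3 overlaps HYLS1 in the RefSeq annotation.

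**Figure D3:**
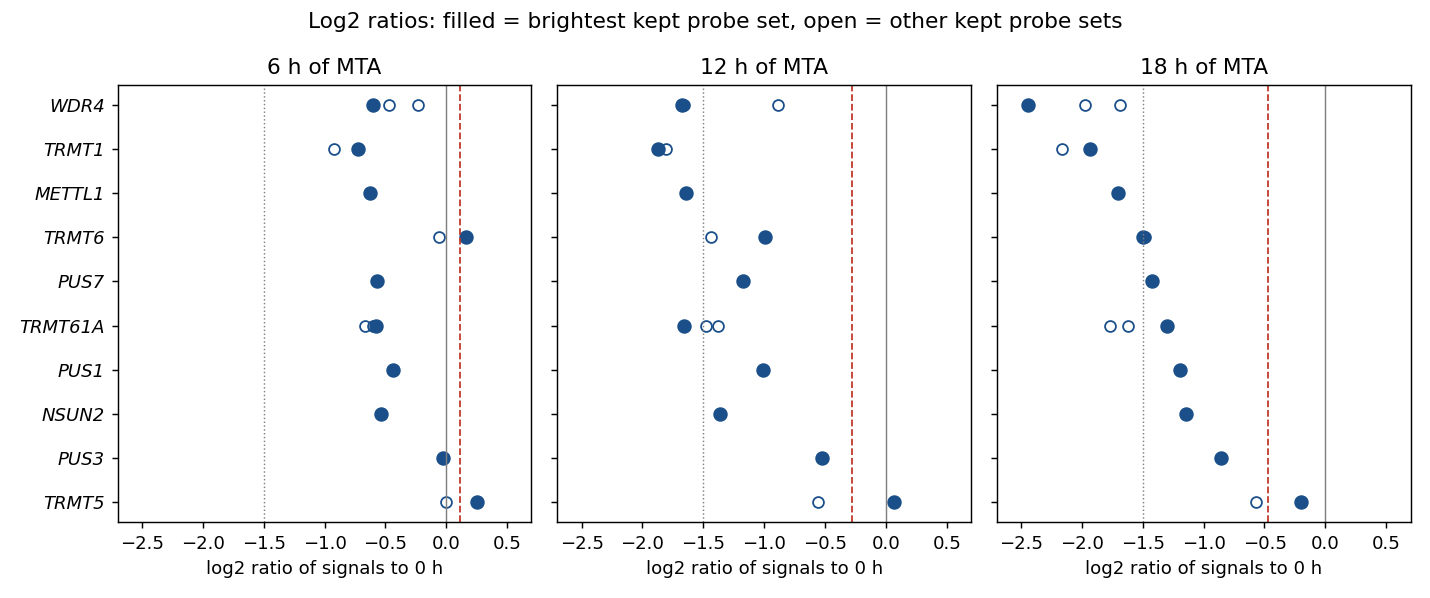
Log2 ratio of signals to 0 h for the 10 genes at 6, 12 and 18 h, with a filled point for the brightest kept probe set of a gene, open points for its other kept probe sets, a dashed line marking the all-gene median and a dotted line at −1.5. At 12 and 18 h every point lies left of the dashed line except the filled point of TRMT5.

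In time, 6 of the 10 genes had a log2 ratio below −0.5 at 6 h, where 5.41% of all genes were. They were TRMT1, METTL1, WDR4, TRMT61A, PUS7 and NSUN2. None was below −1 at 6 h, where 0.476% of all genes were. At 12 h 7 of the 10 were below −1, against 6.29% of all genes, and TRMT1, WDR4, TRMT61A and METTL1 were below −1.5, against 0.942%. With median centring the numbers at 12 h were 5 of the 10 below −1, against 2.24% of all genes, and 1 below −1.5, against 0.276%, and with scaling to the hybridization controls they were 5 and 1, against 2.37% and 0.295%. The median of the 10 genes was −0.56 at 6 h and −1.27 at 12 h, which is −0.67 and −0.99 relative to the median of all genes at the same time, beside −0.89 at 18 h. These ratios share the 0 h array and are no separate support for each other. All 17 kept probe sets were lower at 12 h than at 6 h, as were 88.4% of all kept probe sets.

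Other genes of tRNA modification were also mostly lower at 18 h, with a median nearer to that of all genes. Of 79 such genes in 3 lists, 70 had a kept probe set, 2 had only dimmer ones and 7 were not matched to a probe set here. Of the 70, 69 had a log2 ratio below 0 at 18 h with the deposited scaling. The median of all genes was −0.47, and 68.1% of all genes lay below the −0.20 of TRMT5, so most genes were below 0 as well. Their exact share below 0 was not counted. Of the 70, 24 were below −1, against 15.8% of all genes, and 4 of them below −1.5, against 3.19%. None was above 1, against 3.15%. With median centring 0 of the 70 were below −1.5, against 0.714% of all genes. The number was 1 with the poly-A controls and 2 with the hybridization controls, against 1.36% and 2.8%. Under these scalings the 70 thus showed no clear excess below −1.5. The median of the 70 with the deposited scaling was −0.84, which is −0.37 relative to all genes, beside −0.89 for the 10 genes. The difference between the 10 genes and the others was not tested, since the 10 had been chosen around WDR4.

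Among the other tRNA methyltransferases and their partners, 7 of 26 were below −1, against 15.8% of all genes. METTL8, which methylates mitochondrial tRNAs, had −1.502, just past the threshold, and signals of 193 at 18 h against 546 at 0 h, with −1.01 on its other kept probe set. METTL2B, which makes 3-methylcytidine, had −1.46, with 26.1 at 18 h against 71.7 at 0 h. TRMT13, which methylates a ribose of the acceptor stem, had −1.20, but −0.30 on another kept probe set. The highest were TRMT2B, a mitochondrial enzyme, at −0.15 and TRMT10A, a guanosine methyltransferase, at −0.16. TRMT10A had 0.32 on another kept probe set.

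Of the 9 other pseudouridine synthases 2 were below −1 and none below −1.5, against 15.8% and 3.19% of all genes. PUSL1 had −1.43, its signals being 104 at 18 h against 279 at 0 h, and RPUSD2 had −1.05 after −1.57 at 12 h. PUS7L, a paralogue of PUS7, had −0.83. PUS10 and TRUB2 had the highest ratios, −0.57 and −0.60, and PUS10 had 0.71 on another kept probe set.

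Among enzymes that make other base changes, 15 of 35 were below −1 and 3 below −1.5, against 15.8% and 3.19% of all genes. CTU2, which thiolates the wobble uridine with its partner CTU1, had −1.79, its signals being 64.6 at 18 h against 224 at 0 h. ADAT2, the catalytic subunit of the deaminase that makes inosine at the wobble position, had −1.62, and −1.09 on its other kept probe set. Its partner ADAT3, named here after its value was seen, had −0.21, the third highest of this list. DUS3L, a dihydrouridine synthase, had −1.51. THUMPD1, the adaptor of the acetyltransferase NAT10, had −0.20. The highest was OSGEPL1, which makes a threonylated adenosine in mitochondria, at 0.42, but it had −0.38 on another kept probe set.

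Genes that cut, join or otherwise handle tRNA were given for comparison, among them the export receptor XPOT and the RNA-binding proteins SSB and LARP7. Of 28 listed, 25 had a kept probe set, with a median of −0.90 at 18 h. Of these 9 were below −1, against 15.8% of all genes. RPP25, a subunit of RNase P and RNase MRP, was the only 1 below −1.5, against 3.19%. It had −1.80, its signals being 284 at 18 h against 991 at 0 h, but −0.82 on its other kept probe set. With median centring none of the 25 was below −1.5, against 0.714% of all genes. ELAC2, which cuts the 3′ trailer, had −1.34 and its paralogue ELAC1 −1.28. THG1L, which adds a guanosine to histidine tRNA, had −0.03, and LARP7, which binds 7SK RNA, had −0.28, and 0.33 on another kept probe set.

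**Figure D4:**
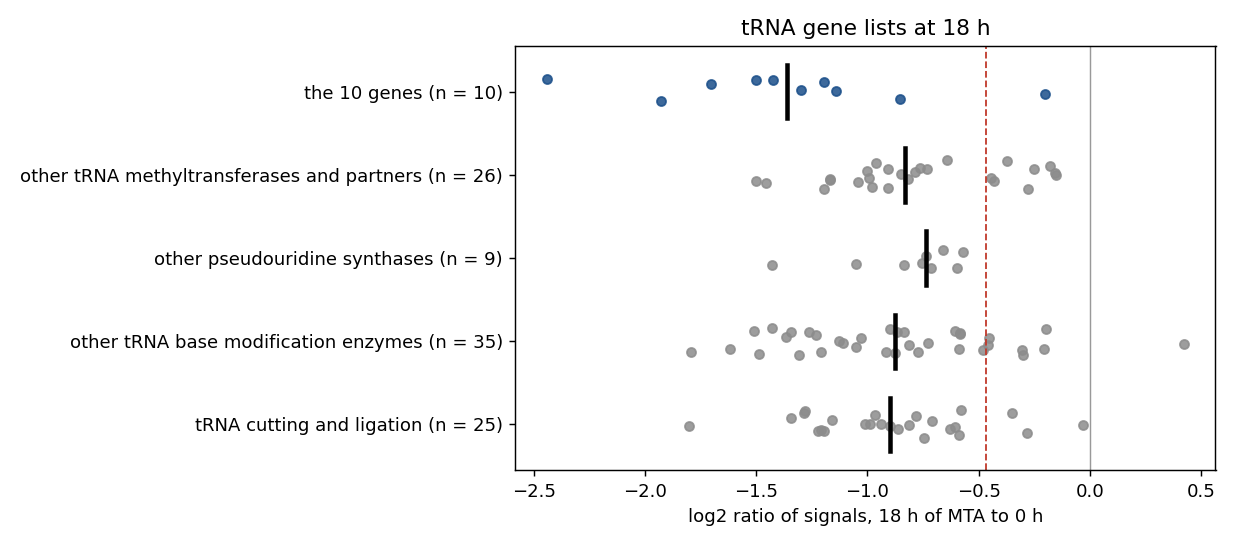
Log2 ratio, 18 h of MTA over 0 h, of 5 gene lists, where points are genes (spread vertically at random), a thick bar at the median of each list and a dashed line marking the all-gene median, −0.47. The median of the 10 genes is −1.36, and the medians of the other 4 lists lie between −0.90 and −0.74.

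Genes with time courses most like that of WDR4 were found by the root mean square difference of the 3 log2 ratios, over 4 arrays and all genes by their brightest kept probe sets. The 5 nearest were UNK, UNG, URB2, CHAC2 and PGP, at differences from 0.06 to 0.15 on the log2 scale. UNG, the uracil-DNA glycosylase, had −0.52, −1.68 and −2.35 at 6, 12 and 18 h. UNK had 0.28 at 18 h on a second kept probe set. The 5 nearest to METTL1 were GPATCH4, TMEM150A, FTSJ3, HS6ST2 and NXT1, at differences from 0.04 to 0.11. FTSJ3, a methyltransferase of ribosomal RNA, had −0.64, −1.66 and −1.55.

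**Figure D5:**
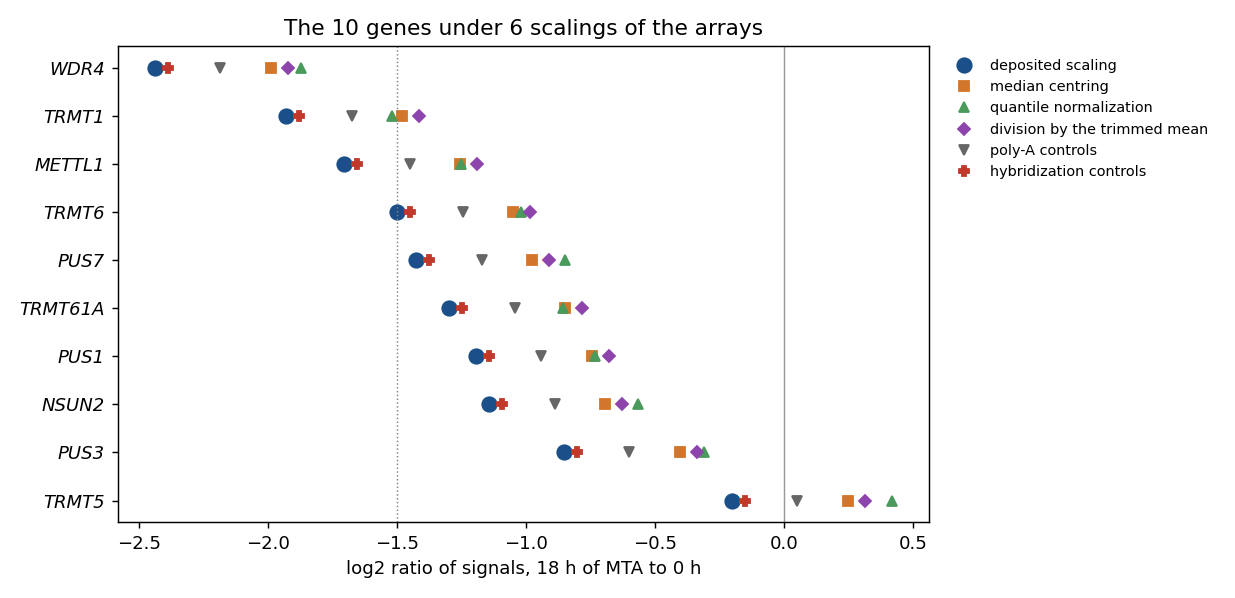
Log2 ratio of the 10 genes, 18 h of MTA over 0 h, with the deposited scaling and 5 other scalings of the arrays, with a line at 0 and a dotted line at −1.5. WDR4 stays left of −1.5 under all 6, TRMT5 lies on both sides of 0, and the other genes stay left of 0.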

How the data were processed

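Gene expression was measured on Affymetrix U133 Plus 2.0 arrays, 1 for each of 0, 6, 12 and 18 h of MTA treatment. The values deposited by the authors are linear MAS5 intensities from Affymetrix Expression Console, with version and scaling target not given in the sources used here. Control probe sets (62) were left out. The 38.4% of probe sets with the highest mean log2 signal were kept, as many as the paper counts as detected, down to a mean signal of 34.0. Probe sets were named by GEO's platform annotation, with symbols updated through RefSeq (GRCh38.p14). Of 54613 probe sets 41091 had 1 symbol, 1801 several and 11721 none, and only those with 1 were named.

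A gene was represented by its brightest kept probe set, without a pseudocount. No test was made, as each time had 1 array. The threshold of 1.5 is the paper's. The genes and lists were chosen with earlier results of these data known. Named were all 10 genes, the 3 lowest and 2 highest of each tRNA list at 18 h, list members beyond 1.5, and the 5 genes nearest to WDR4 and METTL1. ADAT3 was named outside this rule. Alternatives covered filters, scalings, a pseudocount, thresholds and the choice of probe set. The calculation was tested on simulated data. Python 3.11.15, NumPy 2.4.6, pandas 2.3.3 and matplotlib 3.10.9 were used.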

Additional observations from a re-analysis of the deposited data

Results flagged for a closer look

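TRMT6 and TRMT5 had log2 ratios of opposite sign at 6 and 18 h on their brightest probe sets. TRMT6 had 0.16 at 6 h and −1.4996 at 18 h, and TRMT5 had 0.25 at 6 h and −0.20 at 18 h. The difference between the times was not tested, since each had 1 array. The sign of TRMT6 at 6 h turned with scaling to the poly-A controls (−0.04), and that of its other probe set was negative with the deposited scaling (−0.06). That of TRMT5 at 6 h did not turn under the alternatives run. None of them used the other TRMT5 probe set alone, which had 0.0002 at 6 h.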

How the results depend on the processing

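No paired analysis was possible because each time had 1 array, and no replicate could be left out. The number of the 10 genes below −1.5 at 18 h, 3 with the deposited scaling, was 1 with median centring, 1 after division by the trimmed mean, and 1 with a filter of 10000 probe sets, which kept 6 of the 10. It was 2 with the poly-A controls and with quantile normalization, against 1.36% and 0.8% of all genes. It was 8 at a threshold of 1 and 1 at a threshold of 2. The number below −1, a count added after the values had been seen, was 4 with median centring, with quantile normalization and with 10000 probe sets, and 3 after division by the trimmed mean, against 3.74%, 3.86%, 17.6% and 3.07% of all genes. The counts at 6 and 12 h were also added after the values had been seen. At 12 h the number below −1.5, 4 with the deposited scaling, was 1 with median centring, quantile normalization, division by the trimmed mean, the hybridization controls and 10000 probe sets. The shares of all genes were 0.276%, 0.267%, 0.228%, 0.295% and 0.544%. The number below −1 at 12 h, 7 with the deposited scaling, was 3 with 10000 probe sets, against 5.72% of all genes. It was 5 to 8 under the other alternatives, against 1.89% to 13.8% of all genes. The number below −0.5 at 6 h, 6 with the deposited scaling, was 3 with 10000 probe sets, against 4.35% of all genes. It was 5 to 7 otherwise, against 4.95% to 15.8% of all genes. At 18 h, of all genes 0.714% were below −1.5 with median centring, 0.581% after division by the trimmed mean and 3.15% with 10000 probe sets. The median of the 10 genes at 18 h was −0.85 with quantile normalization and −0.85 after division by the trimmed mean. Its shift from the median of all genes at 18 h lay between −1.04 and −0.73 under all 11 alternatives to the filter, scaling, pseudocount and probe set. No gene of the 10 was above the threshold under any of 13 alternatives.

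Other tRNA modification genes below the threshold, 4 with the deposited scaling, were 0 with median centring, quantile normalization, division by the trimmed mean and a threshold of 2. They were 1 with the poly-A controls (1.36% of all genes) and 10000 probe sets (3.15%). They were 2 with the hybridization controls (2.8%) and the pseudocount of 2.90 (2.98%), and 24 at a threshold of 1. Their median was −0.32 after division by the trimmed mean. Of the genes that cut, join or handle tRNA, 1 with the deposited scaling, 0 were below the threshold with median centring, quantile normalization, division by the trimmed mean, the mean or median over probe sets and a threshold of 2, and 9 at a threshold of 1. The SD between probe sets at 18 h was 1.60 without a filter and 0.315 with 10000 probe sets. Values of single genes among the 10, at 6 and 18 h, were set against the SD between kept probe sets, 0.408 and 0.479. Of 212 values 196 moved by less and 16 by more, and no value past the threshold changed sign. The cause of these shifts was not tested. The number of arrays and the dim readings near 34.0 limit the precision.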
